A study of Mus musculus with 6 samples.

Results

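The imprinted growth genes H19, Igf2, Cdkn1c, Peg3, Peg10, Grb10, Dlk1, Meg3, Plagl1 and Mest were followed in the mouse mandibular arch with and without Tbx1, a T-box transcription factor of pharyngeal development. Members were the probe sets that the platform annotation assigns to 1 symbol among these 10 genes, which gave 29 of 45101 probe sets and 9 of the 10 genes. RNA came from mandibular arches of C57BL/6 embryos at E10.5 and was read on 6 Affymetrix Mouse Genome 430 2.0 arrays, 3 labelled Tbx1+/+ and 3 labelled Tbx1-/-. Arches from 3 embryos were pooled by genotype. Whether the arrays of a genotype came from separate pools is not clear from the labels, and the p-values therefore reflect array-to-array spread, which may be technical. The mutant allele is not described in the sources used here.

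Imprinted genes are transcribed mainly from 1 parental allele, and which allele is used is set by DNA methylation laid down in the germ line. Several paternally expressed members promote fetal and placental growth, and several maternally expressed members restrain it. In the embryo these genes are known for high expression in mesenchyme and for shutting down after birth, and many are also active in placenta.

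The mean of 15 mesenchyme markers of the arch lay between 10.06 and 10.19 (log2) on all 6 arrays, with all 15 above 4. Array medians lay between 6.08 and 6.15. Tbx1-/- replicate 3 stood apart: on it 249 genes exceeded their mean on the remaining arrays by over 1. The mean of 23 measured placental and trophoblast markers was 7.94 there against 4.59 to 4.74 elsewhere, with 23 of 23 above 4 against 12 to 15, and the mean of 10 decidual markers was 8.00 there, 5.99 on Tbx1-/- replicate 2 and 4.13 to 4.85 on the other 4. Macrophage markers averaged 7.07 on that array and 6.11 to 6.46 on the others. Of those 10 genes 3 lay over 1 above the other arrays, the furthest by 4.67. Their median shift was 0.41 and the lowest -0.57. Endothelial and epithelial markers also had their highest list means on that array, 8.22 against 7.94 to 8.14 and 10.16 against 9.63 to 10.08. Skeletal muscle markers averaged 5.90 to 6.27 on the Tbx1-/- arrays and 6.63 to 6.98 on the Tbx1+/+ arrays, without overlap. The brightest set of each member is given with and without Tbx1-/- replicate 3. In whole tissue, fewer cells of a type and less RNA per cell cannot be told apart.

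No member passed the test between the genotypes. In limma with Benjamini-Hochberg adjustment 0 of 9 genes passed an adjusted p of 0.05, where 0.0373% of all 16073 genes did, and 0 of 9 reached an unadjusted p under 0.05, against 2.68% of all genes. The adjusted p was 1.00 for every member. Among the 9 genes 6 had a higher and 3 a lower mean on the Tbx1-/- arrays, with a median difference of 0.02 (log2) against -0.01 over all genes tested, and 47.3% of all genes had a higher mean. Over single probe sets, 27 of the 29 passed the filter on low values, and 0 of 27 passed in limma, where 0.00668% of 29935 probe sets did; 1 of 27 had an unadjusted p under 0.05, against 2.46%. Of the 27 sets 21 had a higher mean on the Tbx1-/- arrays, against 46.0% of all probe sets, and 11 of the 29 belong to Meg3. The groups did not overlap on 1 of the 27, against 6.16%.

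Leaving out Tbx1-/- replicate 3 did not bring any member past the threshold. Without it, 0 of 9 genes passed in limma, against 0.137% of all genes, and 0 of 9 had an unadjusted p under 0.05, against 3.19%. Of the 27 probe sets 0 passed, against 0.0768%, and 0 had an unadjusted p under 0.05, against 2.72%. The median difference of the members was then 0.04, and 4 of the 9 differences changed sign, those of Cdkn1c, Grb10, Plagl1 and Mest. All 4 were small on either set of arrays, between -0.08 and 0.04.

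**Figure D1:**
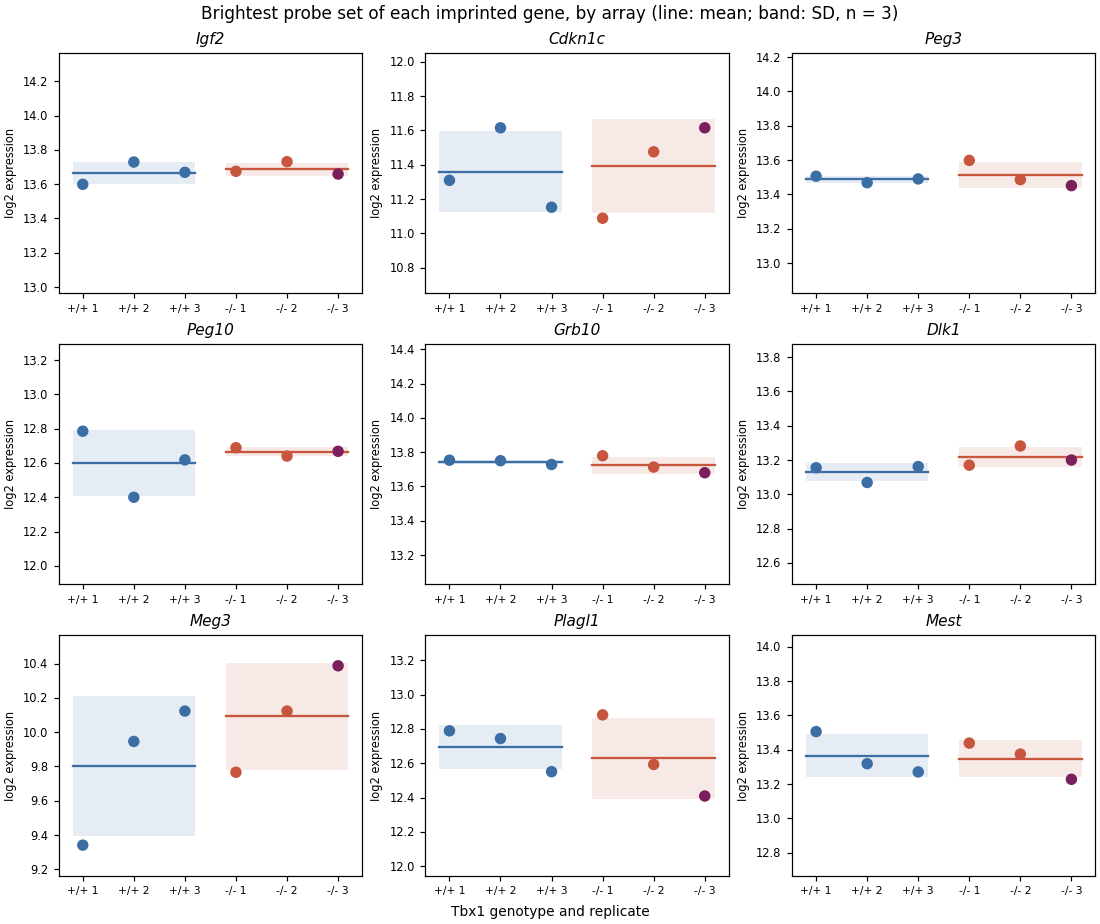
Log2 expression of the brightest probe set of each gene on each array, with the genotype mean as a line and the SD as a band (n = 3). All panels span the same height of log2 units, and Tbx1-/- replicate 3 is drawn in purple. The 6 points lie within 0.15 of each other for Igf2, Peg3 and Grb10, and spread over 1.05 for Meg3.

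Igf2 encodes insulin-like growth factor II, a secreted fetal growth factor transcribed from the paternal allele. Its brightest probe set read 13.60, 13.73 and 13.67 (log2) on Tbx1+/+ replicates 1 to 3 and 13.68, 13.73 and 13.66 on Tbx1-/- replicates 1 to 3. The groups overlapped, and no array was more than 0.13 from another. The means were 13.67 ± 0.07 (SD, n = 3) and 13.69 ± 0.04 (SD, n = 3), a difference of 0.02 (SE 0.05, 95% interval -0.09 to 0.14), and 0.04 (SE 0.06) without Tbx1-/- replicate 3.

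The second Igf2 probe set varied far more than the first. It read 9.06, 8.48 and 7.79 on the Tbx1+/+ arrays and 8.84, 8.68 and 8.00 on the Tbx1-/- arrays. In both genotypes replicate 1 was the highest and replicate 3 the lowest, and the range of 1.28 compares with 0.13 on the brighter set. The genotype difference was 0.06 (SE 0.32) in limma, and 0.32 (SE 0.30) without Tbx1-/- replicate 3, with an interval of -0.37 to 1.00.

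H19, a maternally expressed long non-coding RNA that neighbours Igf2 and shares its imprinting control region, had no probe set of its own under the rule. The single probe set listed for it is annotated to both H19 and Mir675, the microRNA processed from the H19 transcript, and is not used here. The mature forms of that microRNA are shown because they are the sequence that gives the set its second name. They are taken from RefSeq (GRCm38.p6, minus strand of chromosome 7), with the seed, bases 2 to 8, in capitals, and the 2 seeds differ.
mmu-miR-675-5p: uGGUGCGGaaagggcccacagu
mmu-miR-675-3p: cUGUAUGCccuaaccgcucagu

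Grb10 encodes an adaptor protein that binds insulin and IGF receptors and dampens their signal, and it is maternally expressed outside neurons. The brightest of its 3 probe sets read 13.75, 13.75 and 13.73 on the Tbx1+/+ arrays and 13.78, 13.71 and 13.68 on the Tbx1-/- arrays. Its range of 0.10 was the smallest of any member's brightest set, and the groups overlapped. The difference was -0.02 (SE 0.05, 95% interval -0.12 to 0.09), and 0.00 (SE 0.05) without Tbx1-/- replicate 3.

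The 2 dimmer Grb10 sets did not hold that steadiness. One read 8.41, 7.34 and 7.05 on the Tbx1+/+ arrays and 7.88, 7.88 and 7.31 on the Tbx1-/- arrays, a range of 1.36. The other read 7.37, 6.54 and 6.64 against 6.93, 7.01 and 6.67. On both sets Tbx1+/+ replicate 1 was the highest array, and the genotype differences were 0.09 (SE 0.33) and 0.02 (SE 0.22). Without Tbx1-/- replicate 3 they were 0.28 (SE 0.33) and 0.12 (SE 0.23).

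Cdkn1c encodes p57Kip2, a cyclin-dependent kinase inhibitor expressed from the maternal allele that restrains cell division. Its 1 probe set read 11.31, 11.61 and 11.15 on the Tbx1+/+ arrays and 11.09, 11.47 and 11.62 on the Tbx1-/- arrays. The lowest array was Tbx1-/- replicate 1, and the highest, Tbx1-/- replicate 3, was level with Tbx1+/+ replicate 2, so each genotype spread further than the step between them. The difference was 0.03 (SE 0.16, 95% interval -0.32 to 0.39), and -0.08 (SE 0.15) without Tbx1-/- replicate 3.

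Dlk1 encodes a transmembrane protein with EGF repeats, related to Notch ligands, that is expressed from the paternal allele and holds back differentiation of precursor cells. Its brightest set read 13.15, 13.07 and 13.16 on the Tbx1+/+ arrays and 13.17, 13.28 and 13.20 on the Tbx1-/- arrays. This was the 1 member of 9 whose groups did not overlap, with the closest arrays 0.01 apart; 6.43% of all genes had groups without overlap. The difference was 0.09 (SE 0.05, 95% interval -0.04 to 0.21), 1.06-fold, with p = 0.10 in the exact permutation test, the smallest it allows, and p = 0.14 unadjusted in limma. Without Tbx1-/- replicate 3 it was 0.10 (SE 0.07). The second Dlk1 set differed by 0.06 (SE 0.13), or 0.02 (SE 0.15) without that array, and its groups overlapped.

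Meg3, a maternally expressed long non-coding RNA from the same cluster as Dlk1, showed the widest differences. It has 11 probe sets, 10 of which had a higher mean on the Tbx1-/- arrays, and none of which separated the groups. Sets of 1 gene are not independent measurements of it, and which transcript forms each set of Igf2, Grb10, Peg3 or Meg3 reads was not checked, since probe sequences are not used here. The brightest read 9.34, 9.95 and 10.12 on the Tbx1+/+ arrays and 9.77, 10.12 and 10.39 on the Tbx1-/- arrays. Tbx1+/+ replicate 1 was the lowest array and Tbx1-/- replicate 3 the highest. The means of 9.80 ± 0.41 (SD, n = 3) and 10.09 ± 0.31 (SD, n = 3) differed by 0.29 (SE 0.22, 95% interval -0.21 to 0.79).

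The size of that difference varied with the arrays included and its sign did not. It was 0.06, 0.36 and 0.45 without Tbx1+/+ replicates 1, 2 and 3 in turn, and 0.45, 0.27 and 0.14 without Tbx1-/- replicates 1, 2 and 3. The widest difference of any member's probe set was on another Meg3 set, which read 9.22, 9.67 and 9.80 against 9.76, 9.90 and 10.16. It differed by 0.38 (SE 0.16) with an unadjusted p of 0.047 and an adjusted p of 1.00 in limma, and by 0.27 (SE 0.17) without Tbx1-/- replicate 3.

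Taken by replicate number, the Tbx1-/- array read higher on the brightest Meg3 set in all 3 pairs, by 0.42, 0.18 and 0.26, and the SE of the difference was 0.08 with the replicate number as a block. With that block, 0 of the 9 genes passed in limma, against 0.0622% of all genes. Meg3 was the 1 member with an unadjusted p under 0.05, against 4.24% of all genes; its p in limma was 0.0084 and its adjusted p 0.83. Among probe sets 3 of 27 had an unadjusted p under 0.05 with the block, against 3.78% of all probe sets, all 3 being Meg3 sets, and 0 passed after adjustment, against 0.0468%, with a smallest adjusted p of 0.66. The call for Meg3 was thus the same with and without the block. Rian, another maternally expressed non-coding RNA of the cluster, differed by 0.00 (SE 0.08) and Mirg by 0.22 (SE 0.13); both are named after their values were seen.

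**Figure D2:**
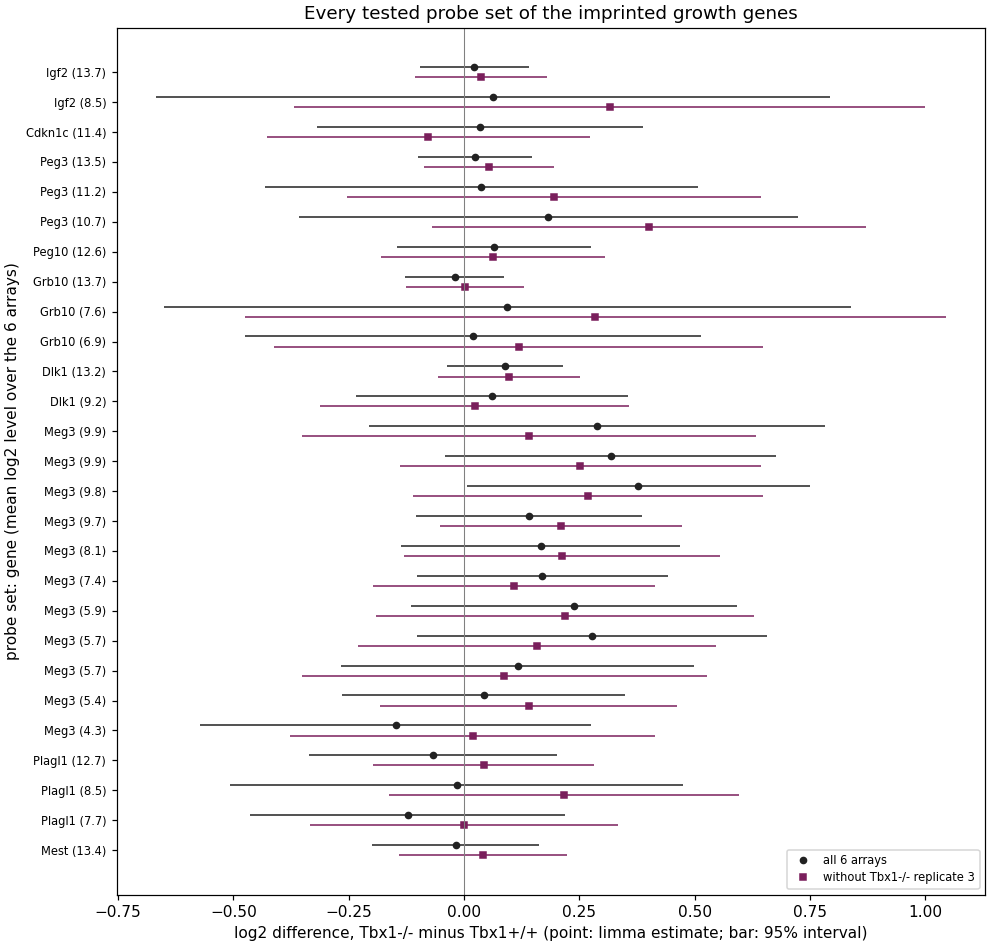
Log2 difference of Tbx1-/- minus Tbx1+/+ for each of the 27 tested probe sets, with its 95% interval from limma, for all 6 arrays (black circles) and without Tbx1-/- replicate 3 (purple squares); the number after the gene is the set's mean log2 level. Intervals are narrow for the bright sets of Igf2, Peg3, Grb10 and Dlk1 and wide for the dimmer sets of Igf2 and Grb10, and 1 of the 27, a Meg3 set, excludes 0 before adjustment with all 6 arrays.

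Peg3, a paternally expressed zinc finger protein, had 5 probe sets, 3 of which were tested. The brightest read 13.51, 13.47 and 13.49 on the Tbx1+/+ arrays and 13.60, 13.49 and 13.45 on the Tbx1-/- arrays. The groups overlapped, with the highest and the lowest array both labelled Tbx1-/-, and the difference was 0.02 (SE 0.05, 95% interval -0.10 to 0.15), and 0.05 (SE 0.06) without Tbx1-/- replicate 3. The second in brightness read 11.59, 10.80 and 11.03 against 11.41, 11.25 and 10.86, and differed by 0.04 (SE 0.21), or 0.19 (SE 0.20) without that array. The third in brightness read 11.05, 10.36 and 10.41 against 11.21, 10.80 and 10.35. It differed by 0.18 (SE 0.24), and by 0.40 (SE 0.21, 95% interval -0.07 to 0.87) without Tbx1-/- replicate 3. The 2 sets that were not tested lay between 2.25 and 3.28, under the filter.

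Plagl1 encodes Zac1, a paternally expressed zinc finger transcription factor known to act on other imprinted genes. Its brightest set read 12.79, 12.74 and 12.55 on the Tbx1+/+ arrays and 12.88, 12.59 and 12.41 on the Tbx1-/- arrays. Tbx1-/- replicate 1 was the highest array and Tbx1-/- replicate 3 the lowest. The difference was -0.07 (SE 0.12, 95% interval -0.34 to 0.21), and 0.04 (SE 0.10) without Tbx1-/- replicate 3. On the 2 dimmer sets Tbx1-/- replicate 3 was again the lowest array, and the differences were -0.02 (SE 0.22) and -0.12 (SE 0.15). Without that array they were 0.22 (SE 0.17) and -0.00 (SE 0.15).

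Since Plagl1 binds DNA, the promoter windows of the members were searched for GGGGCCCC, the core letters of its motif, which reads the same on both strands. RefSeq windows of 300 bases (GRCm38.p6) were found for 7 members, 14 windows in all. Of these 1 held the motif, at Peg3, where 1.08% of 32851 windows did. The Peg3 window is printed because it is the 1 match, with the motif in capitals. A match describes the letters and says nothing of binding in this tissue.
Peg3, chr7:6730370-6730669, minus strand: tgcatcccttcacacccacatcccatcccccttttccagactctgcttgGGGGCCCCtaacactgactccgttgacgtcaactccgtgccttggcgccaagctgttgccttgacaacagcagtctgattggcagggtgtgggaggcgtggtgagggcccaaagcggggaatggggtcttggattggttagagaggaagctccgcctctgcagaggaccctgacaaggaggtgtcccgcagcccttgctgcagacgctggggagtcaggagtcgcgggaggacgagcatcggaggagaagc

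Peg10, a paternally expressed gene derived from a retrotransposon and needed for placental development, has 1 probe set here. It read 12.78, 12.40 and 12.62 on the Tbx1+/+ arrays and 12.69, 12.64 and 12.67 on the Tbx1-/- arrays. The Tbx1-/- values lay inside the Tbx1+/+ range. The difference was 0.06 (SE 0.09, 95% interval -0.15 to 0.28), and 0.06 (SE 0.11) without Tbx1-/- replicate 3.

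Mest, a paternally expressed gene for an alpha/beta hydrolase fold protein, also has 1 probe set. It read 13.51, 13.32 and 13.27 on the Tbx1+/+ arrays and 13.44, 13.38 and 13.23 on the Tbx1-/- arrays. Replicate 1 was the highest array of each genotype and replicate 3 the lowest. The difference was -0.02 (SE 0.08, 95% interval -0.20 to 0.16), and 0.04 (SE 0.08) without Tbx1-/- replicate 3.

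Within the members, the brightest sets had the smallest median range, and there was no further trend with level among the rest. The 7 sets with a mean above 12 ranged by 0.10 to 0.47 over the 6 arrays (median 0.21), the 8 sets between 9 and 12 by 0.35 to 1.05 (median 0.79), the 12 sets between 4 and 9 by 0.35 to 1.36 (median 0.65) and the 2 sets under 4 by 0.26 to 0.49 (median 0.38). The brightest value of any probe set on any array was 15.1, and whether sets near the top of the scale respond in proportion to transcript was not tested.

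The arrays also differed by replicate number across members. Both replicate 1 arrays lay above the other 4 on 11 of the 27 tested probe sets, against 14.6% of all probe sets, and for 5 of the 9 genes, Peg3, Peg10, Grb10, Plagl1 and Mest, against 11.2% of all genes. Both lay below the other 4 for 1 gene, Meg3, against 16.1%. This pattern was noticed in the values, several of the sets share a gene, and the labels do not say what a replicate number shares. Its part in the results was not tested beyond the replicate block.

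**Figure D3:**
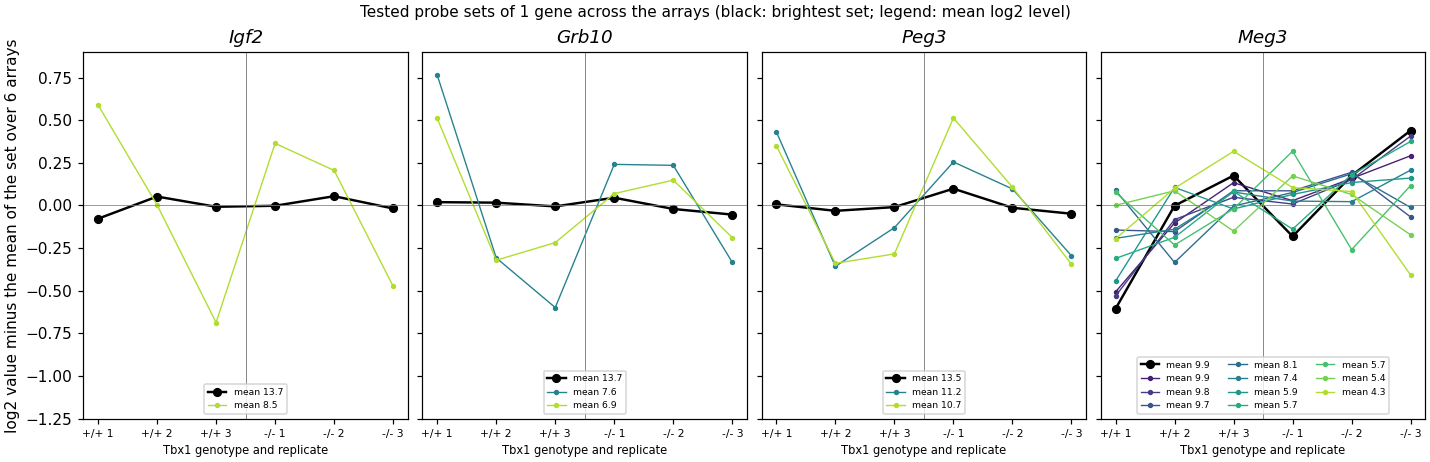
Values of each tested probe set of Igf2, Grb10, Peg3 and Meg3, as the log2 value minus the mean of that set over the 6 arrays; a line joins the values of 1 set, black marks the brightest set, and the legend gives mean log2 levels. The brightest sets of Igf2, Grb10 and Peg3 stay close to 0 on all arrays while their dimmer sets spread further, and the 3 brightest Meg3 sets are lowest on Tbx1+/+ replicate 1.

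On the array with placental transcripts, 0 of the 9 genes differed by over 1 from their mean on the remaining arrays. Such shifts were rare among all 16073 genes tested, with 249 over 1 above and 8 over 1 below, so the count does not set the members apart. Meg3 was furthest above, by 0.53, followed by Cdkn1c, by 0.29, and Plagl1 was furthest below, at -0.30. Tbx1-/- replicate 3 was the highest array for 2 of the 9 genes and the lowest for 4, where it was the highest for 19.1% and the lowest for 18.4% of all genes. Over 14 tested placental and trophoblast markers, the median shift from the other 5 arrays was 1.97 and the lowest -0.38. Of these 8 lay over 1 above. Over 7 tested decidual markers the median shift was 4.01 and the lowest -0.22, with 5 over 1 above. The single markers named next were picked for standing highest on this array, so they show the top of each list. The brightest Prl7a1 set, of the prolactin family, read 13.28 there against 3.53 to 4.76 elsewhere. Its other 2 sets lay only 0.41 and 0.36 above, and Prl4a1 read 13.19 against 5.26 to 6.04. The granzyme Gzmg, a protease of decidual killer cells, read 10.81 there, 7.36 on Tbx1-/- replicate 2 and 3.24 to 5.72 on the other 4 arrays. Yolk sac endoderm markers had list means between 5.31 and 5.59 on the Tbx1-/- arrays and between 5.60 and 6.37 on the Tbx1+/+ arrays. The part of these cell types in the members' values was not tested.

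**Figure D4:**
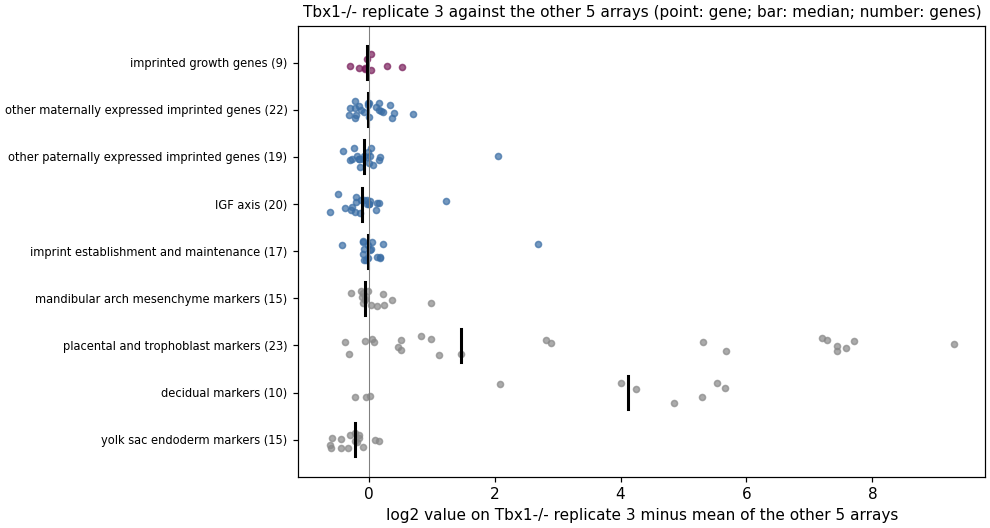
Log2 value on Tbx1-/- replicate 3 minus the mean of the other 5 arrays, with 1 point for each measured gene of a list and a bar at the list median. The 9 imprinted growth genes lie between -0.30 and 0.53, and placental and decidual markers reach 9.30 and 5.67.

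Imprinted genes outside the 10 also gave no call between the genotypes. They are listed by the parental allele known for each gene, in some cases from other tissues. Allele use in the arch was not measured here. Of 23 other maternally expressed genes 21 were tested, and in limma 0 passed, against 0.0373% of all genes, with 1 higher at an unadjusted p under 0.05, where 2.68% of all genes were higher or lower. Of the 21, 17 had a higher mean on the Tbx1-/- arrays, against 47.3% of all genes, and the median difference was 0.05 against -0.01. That median was 0.11 without Tbx1+/+ replicate 1 and 0.09 without Tbx1-/- replicate 1. Some of the 21 share a region and need not be independent, and the count of 17 was not tested. The 1 gene with an unadjusted p under 0.05 in limma was Kcnq1, a potassium channel from the Cdkn1c region. It read 5.34, 5.48 and 5.30 on the Tbx1+/+ arrays and 5.72, 5.59 and 5.83 on the Tbx1-/- arrays, all below the array medians. It differed by 0.34 (SE 0.12, adjusted p = 1.00 in limma). Phlda2, which limits placental growth and lies in the same region, differed by 0.26 (SE 0.13), and Zim1, a neighbour of Peg3, by 0.22 (SE 0.11). Neither passed. With the replicate block the unadjusted p in limma was 0.037 for Kcnq1 and 0.048 for Phlda2, and both had an adjusted p of 1.00. Igf2r, also on this list and described with the IGF axis, had 0.016 with the block and an adjusted p of 0.98 in limma. Among all genes 4.24% had an unadjusted p under 0.05 with the block.

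Of 24 other paternally expressed genes 19 were tested. In limma 0 passed, against 0.0373% of all genes, and 0 had an unadjusted p under 0.05, against 2.68%. A higher mean was seen for 12 of the 19, against 47.3% of all genes, and the median difference was 0.04. Sfmbt2, a Polycomb-group gene known for imprinting in extraembryonic tissue, read 5.19, 5.57 and 5.79 on the Tbx1+/+ arrays and 5.67, 5.74 and 7.65 on the Tbx1-/- arrays. Tbx1-/- replicate 3 was high and the other 5 arrays were not, and the difference of 0.84 (SE 0.48) was 0.19 without that array; with the replicate block its unadjusted p in limma was 0.027 and its adjusted p 1.00. It was the 1 gene among the tested genes of both lists that lay more than 1 above the other 5 arrays there, by 2.06; its second probe set lay 0.79 above. Magel2 differed by 0.14 (SE 0.08), Usp29 by 0.12 (SE 0.10) and Peg12 by -0.13 (SE 0.09), none past the threshold.

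The IGF axis gave 18 tested genes of 21, with 0 passing in limma, against 0.0373% of all genes. Of the 18 genes 11 had a higher mean, against 47.3% of all genes. One of these 11, or 1 of 18, had an unadjusted p under 0.05 in limma, against 2.68%. Without Tbx1-/- replicate 3, 2 of the 18 did, against 3.19%. Igf2r, the maternally expressed receptor that clears IGF2, read 10.38, 10.11 and 10.25 on the Tbx1+/+ arrays and 10.65, 10.42 and 10.36 on the Tbx1-/- arrays, with overlapping groups and a difference of 0.23 (SE 0.11, unadjusted p = 0.061 in limma). The unadjusted p for Igf2r was 0.037 without Tbx1-/- replicate 3, where the difference was 0.29, and 0.016 with the replicate block, where the pairs differed by 0.27, 0.31 and 0.11; the adjusted p values were 1.00 and 0.98. Its other set read 0.40 higher. Irs1, an adaptor of the insulin and IGF receptors, differed by -0.23 (SE 0.13; unadjusted p 0.029 and adjusted p 1.00 in limma with the block), and Igfbp7 by 0.42 (SE 0.32), but by 0.01 without Tbx1-/- replicate 3; the other Igfbp7 sets differed by 0.03 and -0.13.

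Stc2, a secreted glycoprotein that inhibits the proteases which release IGF from its binding proteins, had groups that did not overlap, as did 6.43% of all genes; it was 1 of 18 in this list. Its brightest set read 5.89, 6.08 and 6.30 on the Tbx1+/+ arrays and 7.81, 6.95 and 6.39 on the Tbx1-/- arrays. Replicates 1 and 2 of Tbx1-/- were high and replicate 3 lay 0.10 above the highest Tbx1+/+ array. The difference of 0.96 (SE 0.31) had an unadjusted p of 0.015 and an adjusted p of 1.00 in limma, and 1.29 with an adjusted p of 0.17 without Tbx1-/- replicate 3. Its other 2 sets differed by 0.92 and 2.15. The second of them showed the same arrays high, at 8.51 and 7.28, with Tbx1-/- replicate 3 at 4.98 and the Tbx1+/+ arrays at 4.47 to 5.01.

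A list drawn up for the setting and keeping of imprints gave 16 tested genes of 18, with differences between -0.13 and 0.15. The list is broad, and not every gene on it, Rlim for one, is known to set or keep imprints. In limma 0 of the 16 passed, against 0.0373% of all genes, and 0 had an unadjusted p under 0.05, against 2.68%. Zfp57, a zinc finger protein that protects methylation at imprinted regions, differed by -0.12 (SE 0.11), Tet3, which oxidizes methylated cytosine, by -0.13 (SE 0.11), Dnmt3l by 0.15 (SE 0.10) and Rlim by 0.07 (SE 0.07). Zfp42, a pluripotency and trophoblast gene that failed the filter and is named after its values were seen, read 6.31 on Tbx1-/- replicate 3 and 3.27 to 3.88 on the other 5 arrays. Paralogs of the members gave 7 tested genes of 7, with 0 passing and 0 at an unadjusted p under 0.05 in limma, against the same shares. Grb7 differed by 0.21 (SE 0.14), Grb14 by -0.22 (SE 0.15), Plagl2 by -0.09 (SE 0.18) and Dlk2 by -0.07 (SE 0.15).

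Meg3 was the 1 member whose brightest set ranged over more than 1 log2 unit, as 4.17% of all genes did. The genes with the most similar pattern over the 6 arrays were Hhatl (Pearson r = 0.995), Cad (r = 0.988) and Ube2j1 (r = 0.988), chosen from all genes tested. Their own ranges were narrow, from 5.50 to 5.88, from 9.98 to 10.23 and from 8.55 to 8.87, and 6 arrays from 2 genotypes with shared replicate numbers leave such values as a description.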

How the data were processed

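Per the labels, tissue was homogenized, total RNA was purified on columns, and biotin-labelled cDNA was amplified from 100 ng of it. The authors deposited 1 log2 value for each probe set and array, computed with GCRMA per the submitters' processing notes; the log2 scale was read from the values. GCRMA equalizes the arrays' distributions, so a shift shared by most genes would be lost.

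Only probe sets that the platform annotation gives 1 gene symbol were used (34945 of 45101), and 34741 of them matched the reference gene table by gene ID. Each gene took its probe set with the highest mean, and 16073 of 18193 genes exceeded 4 (log2) on at least 3 arrays and were tested, as were 29935 probe sets in a separate fit. Differences are Tbx1-/- minus Tbx1+/+, fitted in limma 3.58.1 (R 4.3.3; lmFit, eBayes with an intensity trend, genotype only) over all genes or probe sets and adjusted by Benjamini-Hochberg at 0.05. The limma step was tested on simulated data with independent noise and added differences larger than that of any member. That test cannot say whether differences of the members' size would be found. Exact permutation tests are two-sided, and 3 arrays against 3 cannot go below p = 0.10.

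Replicate numbers run from 1 to 3 in both genotypes. Between same-numbered arrays, departures from the genotype mean had correlations of 0.26, 0.13 and 0.14 over the genes tested, so the numbers were treated as a possible pairing on the data alone; over all probe sets the middle pair gave 0.07. The text names the 10 listed genes, up to 4 genes of each related list by smallest p, and up to 5 placental, decidual and yolk sac markers that stood highest on Tbx1-/- replicate 3. Members and lists were chosen with earlier results of these data known. Alternatives covered the filter, the normalization, the trend, array weights, the choice of probe set, the replicate block and each array left out.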

Additional observations from a re-analysis of the deposited data

How the results depend on the processing

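The count of members past the threshold in limma was 0 under each alternative run, over genes and over probe sets (averaging a gene's sets was run over genes alone). The smallest adjusted p of a member gene in limma was 0.83, for Meg3 with the replicate block. With array weights Dlk1 had an unadjusted p of 0.046 in limma, a setting under which 720 of 16073 genes were under 0.05. Over all genes the 6 calls became 2 without a filter, 1 with values under 4 raised to 4, 2 without the intensity trend, 10 with the replicate block and 0 when each gene's sets were averaged (477 genes at an unadjusted p under 0.05 in limma), and between 0 and 22 with 1 array left out: 1 without Tbx1+/+ replicate 1 or 2, 0 without Tbx1+/+ replicate 3 (504 at an unadjusted p under 0.05 in limma) and 22 without Tbx1-/- replicate 3. In 12 of 135 pairs of member and alternative the difference had the other sign, 10 of them with 1 array left out, and none of these differences was larger than 0.08 in size. The replicate block changed no member's call. Over 6 gene lists, 3 of 90 medians under the alternatives were counted as moved from the main fit. For the other maternally expressed genes the median of 0.05 became 0.11 without Tbx1+/+ replicate 1 and 0.09 without Tbx1-/- replicate 1. For the paralogs the median of -0.07 became 0.11 without Tbx1+/+ replicate 1. The small number of arrays limits the precision, and sets near 4 are a weak basis for a difference.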
